A study of Mus musculus with 2 samples.

Results

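The genes of the cytosolic ribosomal proteins were taken by name and annotation from long-read RNA sequencing of mouse adrenal gland: protein-coding genes of the reference annotation whose symbols begin with Rpl or Rps and a digit, or with Rplp or Rpsa, leaving out the S6 kinases and binding-protein names. Of the 91 annotated genes that met this rule, 87 had at least 1 read, among 16745 annotated genes with a read. The 4 without a read in either library were Rpl10l, Rpl39l, Rpl9-ps1 and Rpl36-ps4. The 87 comprised 53 genes of the large subunit and 34 of the small subunit. By name, 77 were canonical genes, 5 were paralogs (Rpl3l, Rpl7l1, Rpl22l1, Rpl36al and Rps27l) and 5 were retrocopies annotated as protein-coding (Rpl10-ps3, Rpl9-ps6, Rps12-ps3, Rps27rt and Rpl36a-ps1). They lay on 20 chromosomes, with 14 on chromosome 7 and 4 on the X chromosome.

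Ribosomal proteins assemble with ribosomal RNA into the large and the small ribosomal subunit, which together translate mRNA. Their mRNAs are short, abundant in nearly all cells and typically begin with a tract of pyrimidines at the 5′ end, the terminal oligopyrimidine (TOP) motif, through which mTOR signalling controls their translation. Many of their introns hold small nucleolar RNAs, and most of the genes have left retrocopies elsewhere in the genome.

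The study sequenced adrenal gland tissue of wild-type C57BL/6J mice obtained from The Jackson Laboratory, as a single group with 2 libraries, labelled biological replicate 1 and 2. The labels call the tissue male in a free-text field but leave the field for sex uncollected and give the age as unknown, and both libraries carry the same donor entry, so the spread between them may be technical. There was no treatment, genotype or time to compare. Every comparison below therefore sets library against library, as replicate 1 over replicate 2, and its p-values measure the difference between these 2 libraries on the assumption that reads are independent.

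Replicate 1 held 848782 reads and replicate 2 held 545229 reads, so that a single read was worth 1.18 CPM (reads scaled to 1000000 per library) in replicate 1 and 1.83 CPM in replicate 2. The 5 cortical markers Star, Cyp11a1, Cyp21a1, Cyp11b1 and Scarb1 were read in both libraries and summed to 46198 CPM in replicate 1 and 86709 CPM in replicate 2. The 5 medullary markers Th, Dbh, Chga, Chgb and Pnmt summed to 10093 CPM in replicate 1 and 23122 CPM in replicate 2, but they went both ways. Th and Pnmt were higher in replicate 1, whereas Dbh, Chga and Chgb were lower, and Chgb had 3881 CPM in replicate 1 against 14458 CPM in replicate 2. All 3 kidney markers had 0 reads in both. The 4 globin genes summed to 1911 CPM in replicate 1 and 128 CPM in replicate 2, and the 3 macrophage markers to 1011 CPM in replicate 1 and 216 CPM in replicate 2. The 3 adipocyte markers summed to 118 CPM in replicate 1 and 45.9 CPM in replicate 2, where Adipoq had 0 reads. Their part in the differences of the ribosomal protein genes was not tested. In bulk tissue, fewer cells of a type and less RNA per cell cannot be told apart. The ratio between these libraries also varied with transcript length over all genes, as given below. The part of length in the marker differences was not tested.

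The TOP motif is a feature of the start site, so the 30 bases around the annotated start (15 on each side) are shown for those of the 10 members with the highest mean CPM that had an entry in the RefSeq promoter table and a long pyrimidine stretch there. Of the 8 such members with an entry, 5 had a stretch of 8 or more C or T letters in this window. They are printed 5′ to 3′ on the coding strand from RefSeq, build GRCm38.p6, with the longest stretch of C and T letters in capitals.
Rps6: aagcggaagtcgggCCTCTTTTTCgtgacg
Rpl35: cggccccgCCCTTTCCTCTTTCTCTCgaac
Rpl4: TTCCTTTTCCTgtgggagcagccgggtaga
Rps15a: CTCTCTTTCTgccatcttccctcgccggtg
Rps9: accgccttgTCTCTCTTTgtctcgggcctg
The windows lie at chr4:86857353-86857382 on the minus strand for Rps6, chr2:39005117-39005146 on the minus strand for Rpl35, chr9:64173372-64173401 on the plus strand for Rpl4, chr7:118116133-118116162 on the minus strand for Rps15a and chr7:3704026-3704055 on the plus strand for Rps9. The longest stretch was 10 letters in Rps6, 18 in Rpl35, 11 in Rpl4, 10 in Rps15a and 9 in Rps9. In the other 3 it was 3 letters in Rpl41, 2 in Rps3a1 and 5 in Rplp0, and for Rpl41, Rps6, Rpl35 and Rps15a the RefSeq start lies upstream of the gene as GENCODE annotates it. The RefSeq start follows the first 15 letters of each printed window. The capitals span it in Rps6, Rpl35 and Rps9. In Rpl4 and Rps15a they end before it, so by that start they are not part of the mRNA. The windows of Rps6 and Rps15a lie wholly upstream of the GENCODE gene.

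Over the 63 members with a promoter entry, 29 (46.0%) had a stretch of at least 8 C or T letters within 25 bases of the start, against 19.4% of 27025 promoters in the table. The 6 letters CTTTCC occurred on the coding strand between 50 bases before and 50 after the start in 18 of 63 members (28.6%), against 4.67% of all promoters. CTCTTTC occurred there in 11 members (17.5%), against 1.33%. CTTCC occurred there in 29 members (46.0%), against 19.8%. CCGGAAG, searched on both strands over 250 bases before and 50 after the start, was found in 24 members (38.1%), against 9.12%. Its reverse complement holds CTTCC, so these 2 searches overlap. These matches describe letters in a window and were given no test.

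The ribosomal protein genes took a larger share of the reads in replicate 1 than in replicate 2. They held 49341 of 848782 reads in replicate 1, or 5.81% (exact Clopper-Pearson 95% interval 5.76 to 5.86%), and 3679 of 545229 reads in replicate 2, or 0.675% (0.653 to 0.697%). The mean of the libraries was 3.24% ± 3.63 (SD, n = 2), so the SD exceeded the mean, and the share was 8.62-fold higher in replicate 1. Intervals cover counting error only. The median member had 553 CPM in replicate 1 and 58.7 CPM in replicate 2, with 79 members above 100 CPM in replicate 1 and 20 in replicate 2. Of the 100 genes with the highest CPM, 19 were members in replicate 1 and 0 in replicate 2.

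**Figure D1:**
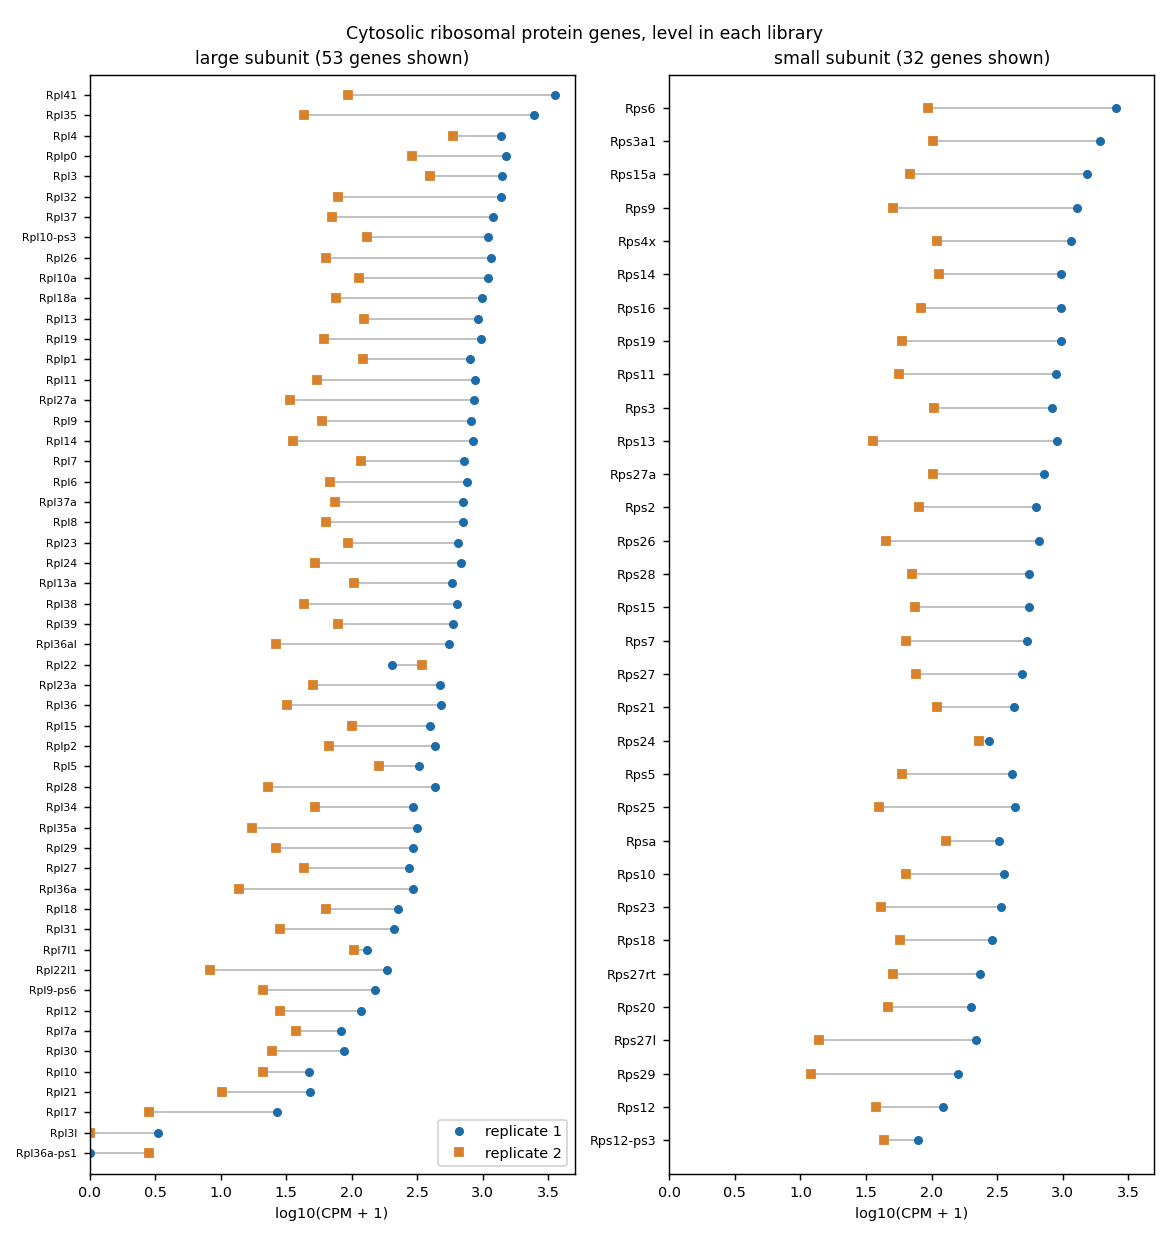
Level of 85 of the 87 ribosomal protein genes in each library, as log10(CPM + 1), for 53 large subunit genes (left) and 32 small subunit genes (right), ordered from the highest mean CPM at the top. Circles are replicate 1 and squares replicate 2; each pair is 1 gene in 2 libraries, and the circle lies to the right of the square for all but Rpl22 and Rpl36a-ps1.

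The members with the most reads were mRNAs of both subunits. One long read stands for 1 cDNA, so the order below is of reads, with no scaling by length. Rpl41, which encodes the smallest ribosomal protein, had 3571 CPM in replicate 1 and 93.5 CPM in replicate 2 (ENSMUSG00000093674.7, chr10:128548114-128548973). Rps6, the substrate of the S6 kinases, had 2546 CPM in replicate 1 and 93.5 CPM in replicate 2. Rpl35, a protein at the exit of the peptide tunnel, had 2467 CPM in replicate 1 and 42.2 CPM in replicate 2. These 3 genes were far apart between the libraries, at 38.2-fold, 27.2-fold and 58.5-fold, and their adjusted p-values were too small to be represented.

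Rpl4 is a large subunit protein that reaches into the exit tunnel. It had 1376 CPM in replicate 1 and 592 CPM in replicate 2, which is 2.32-fold. Rpl3, which lies near the peptidyl transferase centre, had 1409 CPM in replicate 1 and 392 CPM in replicate 2, which is 3.59-fold. Rplp0, the base of the stalk, had 1516 CPM in replicate 1 and 286 CPM in replicate 2, which is 5.30-fold. With Rpl22, these 3 were the members with the most reads in replicate 2. Of the remaining members in the 10 with the highest mean CPM, in replicate 1 Rps3a1 had 1917 CPM, Rps15a 1532 CPM, Rpl32 1376 CPM and Rps9 1284 CPM. In replicate 2 Rps3a1 had 101 CPM, Rps15a 67.9 CPM, Rpl32 77.0 CPM and Rps9 49.5 CPM. Together the 10 members held 32.7% of member reads in replicate 1 and 26.6% in replicate 2.

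The order of the members was only partly shared by the libraries. Over 85 members, Spearman's rho of CPM between the libraries was 0.561, given as a description of genes that share libraries and depth. The lowest canonical member in each library was Rpl17, at 25.9 CPM (22 reads) in replicate 1 and 1.83 CPM (1 read) in replicate 2. Rpl3l, the paralog of Rpl3 known from striated muscle, had 2 reads in replicate 1 and 0 in replicate 2. Rpl36a-ps1 had 0 reads in replicate 1 and 1 read in replicate 2. No ratio was computed for Rpl3l and Rpl36a-ps1.

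Nearly all tested members were higher in replicate 1. Of the 85 members with at least 10 reads over both libraries, 82 were higher in replicate 1 and 1 was lower at an adjusted p under 0.05 (two-sided Fisher's exact test per gene, Benjamini-Hochberg over all genes). Over all 9879 genes tested, 64.4% passed, 27.9% as higher and 36.6% as lower. On the log2 scale of (CPM + 1), the median ratio was 3.07 for the members and −0.38 for all genes tested. At the level of single members, 38 were at 10-fold or more, 29 between 5-fold and 10-fold and 18 under 5-fold. Scaling by TMM moved the median of all genes by 0.44 on the log2 scale and DESeq2 size factors by 0.45. Under either, 84 members were higher in replicate 1, against 33.8% of all genes tested.

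Rpl22 was the 1 member lower in replicate 1. Rpl22 is a large subunit protein that is not essential to the ribosome in mice and is known to bind the mRNA of its paralog. It had 170 reads or 200.3 CPM in replicate 1 and 186 reads or 341 CPM in replicate 2, a log2 ratio of −0.77 (adjusted p = 2.13e-06, Fisher's exact test across all genes). Under DESeq2 size factors its difference did not pass the test. Its paralog Rpl22l1 had 158 reads (186 CPM) in replicate 1 and 4 reads (7.34 CPM) in replicate 2, a log2 ratio of 4.49 (adjusted p = 1.19e-27). With the length trend removed it was 1.18 and did not pass (adjusted p = 0.134, exact binomial test). The paralog thus made up 48.2% of the reads of the pair in replicate 1 and 2.11% in replicate 2.

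The reads of Rpl22 cannot be assigned to one 3′ end by their introns. The known model that took most of them, 581 bases long and annotated as a processed transcript, had 138 reads in replicate 1 and 154 in replicate 2. Its introns are also those of annotated transcripts of 474 and 2051 bases, whose last exons end at positions 152332480 and 152334071 of chromosome 4 in mm10. The most-read unannotated model of Rpl22 was 425 bases long in replicate 1 (16 reads) and 2038 bases long in replicate 2 (17 reads). Of the 32 reads on unannotated models in each library, 8 (25%, exact interval 11.5 to 43.4%) were on models that end nearer the distal end in replicate 1 and 15 (46.9%, 29.1 to 65.3%) in replicate 2. These intervals overlap.

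Only 2 tested members did not pass in either direction. Rps24, a small subunit protein, had 233 reads (275 CPM) in replicate 1 and 126 reads (231 CPM) in replicate 2, with a log2 ratio of 0.25 (adjusted p = 0.174, Fisher's exact test across all genes). Rpl7l1, a paralog of Rpl7 with a role in ribosome assembly, had 111 reads (131 CPM) in replicate 1 and 56 reads (103 CPM) in replicate 2, with a log2 ratio of 0.35 (adjusted p = 0.202). Whether they passed depended on the scaling. Rps24 passed as higher in replicate 1 under TMM (0.68, adjusted p = 3.86e-05), DESeq2 size factors (0.69, adjusted p = 3.05e-05) and removal of the length trend (1.70, adjusted p = 1.14e-26), each by exact binomial test. The length-corrected value of Rps24 rests on an annotated length of 2769 bases. Its most-read model was 548 bases long in replicate 1 and 2505 bases long in replicate 2, so that value is uncertain. With Known models only Rps24 also passed (0.87, adjusted p = 0.00424, Fisher's exact test). Rpl7l1 passed as higher under TMM (adjusted p = 0.00180), DESeq2 size factors (adjusted p = 0.00142) and removal of the length trend (adjusted p = 1.68e-13), each by exact binomial test. Besides Rpl22, the lowest ratios among members that passed were those of Rps12-ps3 (0.87), Rpl5 (1.01), Rpl7a (1.15) and Rpl10 (1.15). Beside Rpl35, Rpl41, Rps6 and Rps9, the highest were at Rps13 (4.65) and Rpl27a (4.65).

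The ratio between the libraries varied with transcript length, and most members were short. The length of a gene here is the annotated length of its most-read known transcript. Of 85 members with a length, 61 were under 1000 bases and the median was 780.0 bases, whereas 10.7% of 9166 tested genes with a length were under 1000 bases and their median was 2564 bases. Between 500 and 750 bases the median log2 ratio was 3.46 over 23 members and 3.53 over all 341 genes of that length. Between 750 and 1000 bases it was 3.25 over 25 members and 3.27 over 446 genes. Under 500 bases it was 2.98 over 13 members and 2.70 over 191 genes, and between 1000 and 1500 bases 3.17 over 14 members and 2.43 over 1026 genes. Among genes annotated as longer the members stood above the rest, but the annotated length of several of these members is doubtful, as given below. From 1500 to 2000 bases the median was 2.00 over 5 members and 0.60 over all genes, from 2000 to 3000 bases 0.35 over 3 members and −1.04 over all genes, and from 3000 bases 3.29 over 2 members and −1.25 over 3578 genes. Over 85 members, Spearman's rho of the log2 ratio and length was −0.213, as a description of genes from the same libraries.

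**Figure D2:**
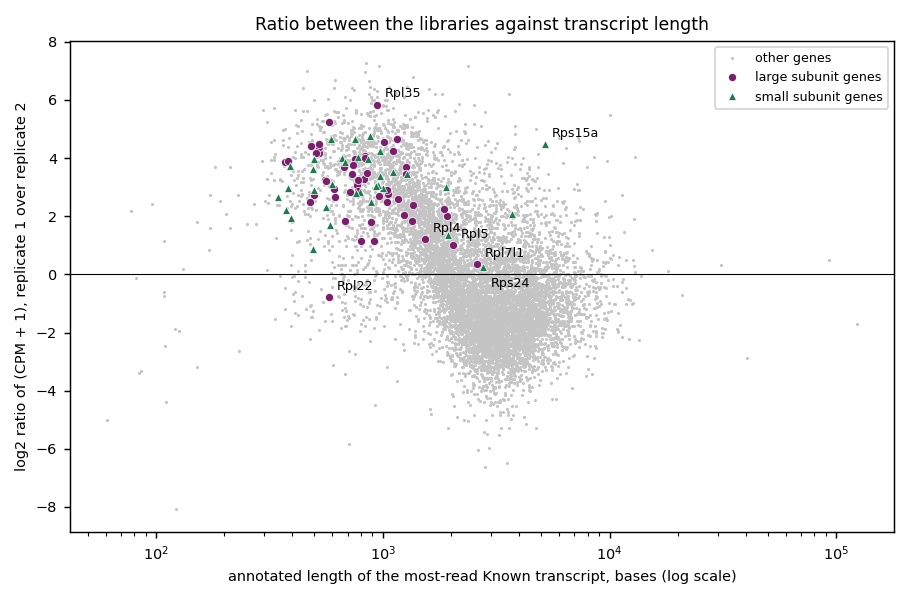
Log2 ratio of (CPM + 1), replicate 1 over replicate 2, against the annotated length of the most-read known transcript in bases on a log scale, for each tested gene with a length; large subunit genes are purple circles, small subunit genes green triangles and other genes grey points. The 61 members under 1000 bases lie mostly among other genes of that length, whose medians were between 2.70 and 3.53. Members annotated at 1500 bases or more, such as Rps15a, had higher medians than other genes of their length, but several of these annotated lengths are doubtful. Rpl22 lies below the 0 line.

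With the running median of the ratio over genes of like length removed, the members spread to both sides. Of the 85 members, 34 were then higher in replicate 1, 18 lower and 33 did not pass (exact binomial test, two-sided, adjusted over all genes), against 21.5% higher and 19.9% lower over all genes. Their median became 0.29, against 0.00 for all genes, and 52 members lay within 2-fold of the trend. The members furthest above the trend were Rps15a (5.54), Rps20 (3.63), Rps3 (2.87), Rpl35 (2.63) and Rpl21 (2.05), on the log2 scale. Those furthest below were Rpl22 (−4.44), Rps12-ps3 (−2.48), Rpl7a (−2.13), Rpl10 (−2.09) and Rps12 (−1.99).

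Several of these positions rest on an annotated length that the reads may not have. The most-read known model of Rps15a was annotated at 5179 bases and that of Rps20 at 3706 bases, while Rps3 was at 1908 and Rpl21 at 1856 bases. Among these 5, Rpl35 alone was annotated at under 1000 bases, at 946. Below the trend, Rpl22 was placed at 581 bases although longer annotated transcripts share its introns. Lengths of known models are those of the annotation and not of the reads.

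The medians of the subunits were close. The 46 canonical large subunit genes had a median of 643 CPM in replicate 1 and 61.4 CPM in replicate 2, with a median log2 ratio of 3.22. The 31 canonical small subunit genes had a median of 555 CPM in replicate 1 and 62.4 CPM in replicate 2, with a median log2 ratio of 3.07. Large subunit members held 1.55 times the reads of small subunit members in replicate 1 and 1.86 times in replicate 2, a mean of 1.71 ± 0.219 (SD, n = 2). Of member reads, 60.8% (exact interval 60.4 to 61.3%) were of the large subunit in replicate 1 and 65.1% (63.5 to 66.6%) in replicate 2.

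The acidic stalk of the large subunit recruits elongation factors and is built from Rplp0 and dimers of Rplp1 and Rplp2. Rplp1 had 804 CPM in replicate 1 and 121 CPM in replicate 2 (log2 ratio 2.72, adjusted p = 4.01e-77, Fisher's exact test across all genes). Rplp2 had 429 CPM in replicate 1 and 66.0 CPM in replicate 2 (2.68, adjusted p = 9.03e-41). With Rplp0 at 2.40 the 3 stalk genes kept a narrow range of ratios. All 3 passed as higher in replicate 1, against 27.9% of all genes. With the length trend removed Rplp0 passed as higher (0.29, adjusted p = 0.0379), Rplp1 passed as lower (−0.68, adjusted p = 0.00244) and Rplp2 did not pass (−0.52, adjusted p = 0.111), by exact binomial test.

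Paralogs with distinct sequence were read beside their partners in different proportions. Rpl36al, with 88.0% identity to Rpl36a over the coding bases, had 469 reads in replicate 1 and 14 in replicate 2, against 248 in replicate 1 and 7 in replicate 2 for Rpl36a. Its share of the pair was 65.4% in replicate 1 and 66.7% in replicate 2. Rps27l, a p53 target with 77.5% identity to Rps27, had 185 reads in replicate 1 and 7 in replicate 2, against 412 in replicate 1 and 41 in replicate 2 for Rps27. Rpl7l1, with 59.1% identity to Rpl7, had 15.4% of the reads of the pair in replicate 1 and 46.7% in replicate 2. These 2 genes differ in annotated length, at 2606 bases for Rpl7l1 and 1163 for Rpl7. Their log2 ratios were 0.35 for Rpl7l1 and 2.60 for Rpl7, but 1.76 and −0.19 with the length trend removed. The part of length in the shares of the pair was not tested.

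The retrocopies cannot be separated from their parents with the same confidence. Rpl10-ps3, a single-exon copy on chromosome 9 identical to Rpl10 over the coding bases, had 927 reads in replicate 1 and 71 in replicate 2, whereas Rpl10, the parent on the X chromosome with 7 exons, had 39 reads in replicate 1 and 11 in replicate 2. The copy thus held 96.0% of the reads of the pair in replicate 1 and 86.6% in replicate 2. Rps12-ps3 and Rps27rt were also identical to their parents over the coding bases, and Rpl9-ps6 was 99.8% identical to Rpl9. Rps12-ps3 held 39.1% of the reads of its pair in replicate 1 and 53.5% in replicate 2, Rps27rt 32.6% in replicate 1 and 39.7% in replicate 2, and Rpl9-ps6 15.5% in replicate 1 and 25.6% in replicate 2. How the counting split such reads is not given in the sources used here, so the levels of these pairs are uncertain.

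Annotated pseudogenes named after members add to the same uncertainty. Of 301 in the annotation, 71 had a read, and together they had 3991 reads in replicate 1 and 283 in replicate 2. That is 8.09 for each 100 member reads in replicate 1 and 7.69 in replicate 2, so their reads moved with those of the members. Rpl21-ps15 had 360 reads in replicate 1 and 27 in replicate 2, against 40 in replicate 1 and 5 in replicate 2 for Rpl21. Rps13-ps2 had 277 reads in replicate 1 and 9 in replicate 2, against 763 in replicate 1 and 19 in replicate 2 for Rps13. With the pseudogenes added, the share of reads was 6.28% in replicate 1 and 0.727% in replicate 2.

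Other genes of the translation machinery showed both directions. The 78 mitochondrial ribosomal protein genes, a separate family that builds the ribosome of mitochondria, held 0.985% of reads in replicate 1 and 0.132% in replicate 2, with 71 higher in replicate 1, 0 lower and a median log2 ratio of 3.30, against 27.9% higher and 36.6% lower over all genes. With the length trend removed, 33 of these 78 genes passed as higher and 1 as lower, with a median of 1.35. Over all genes 21.5% were then higher and 19.9% lower. Fau and Rack1, ribosomal genes whose names fall outside the rule, were both higher in replicate 1. Fau had 864 CPM in replicate 1 and 60.5 CPM in replicate 2, and Rack1 had 292 CPM in replicate 1 and 132 CPM in replicate 2. With the length trend removed, Rack1 passed as lower (−0.89, adjusted p = 6.79e-05) and Fau did not pass (0.35, adjusted p = 0.264), by exact binomial test. Of 16 elongation factors and other genes known for TOP mRNAs, 11 were higher in replicate 1 and 5 lower at total-read scaling, against 27.9% and 36.6% over all genes. Eef1a1, which delivers aminoacyl-tRNA, had 794 CPM in replicate 1 and 6313 CPM in replicate 2, and Eef2, which moves the ribosome along, had 431 CPM in replicate 1 and 7346 CPM in replicate 2. With the length trend removed Eef1a1 stood at −3.31 and Eef2 at −2.48 on the log2 scale. The other elongation factors of the list went the other way, with log2 ratios of 3.04 for Eef1b2, 2.88 for Eef1d and 1.73 for Eef1g. With the length trend removed these stood at 2.95, 3.73 and 1.56.

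Genes that make and recycle ribosomes were called in both directions. Of 29 tested ribosome biogenesis genes, 8 were higher in replicate 1 and 11 lower, with a median log2 ratio of −0.44. These are near the shares and the median over all genes (27.9% higher, 36.6% lower, −0.38). Nop10, a small H/ACA particle protein, had 521 CPM in replicate 1 and 20.2 CPM in replicate 2, whereas Ncl, the nucleolar protein nucleolin, had 135 CPM in replicate 1 and 594 CPM in replicate 2. Of 12 genes of RNA polymerase I and its factors, 3 were higher and 5 lower. Of 9 genes of TOP regulation, 2 were higher and 2 lower, and of 7 for recycling and quality control, 1 was higher and 4 lower, so these short lists are read only against the same 27.9% higher and 36.6% lower over all genes.

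Member reads matched annotated transcripts more often than those of other genes. The authors gave each model a class. Known has the full splice chain of an annotated transcript, ISM has part of it, NIC joins known splice sites in an unannotated way, NNC uses an unannotated splice site, and Genomic lies in the gene without such a structure. Known reads made up 94.8% of member reads in replicate 1 (exact interval 94.6 to 95%) and 84.0% in replicate 2 (82.8 to 85.2%). For all other protein-coding genes they made up 75.3% in replicate 1 and 75.5% in replicate 2. ISM reads were 3.28% of member reads in replicate 1 and 7.72% in replicate 2, and NIC reads 0.661% in replicate 1 and 4.40% in replicate 2. NNC reads were 1.17% in replicate 1 and 2.20% in replicate 2, and Genomic reads 0.0932% in replicate 1 and 1.69% in replicate 2. Every unannotated class of the members thus had a larger share in replicate 2. In all other protein-coding genes this held for NIC (3.48% in replicate 1, 6.33% in replicate 2) and NNC (2.73% and 4.75%). There, ISM (13.6% and 10.2%) and Genomic (4.89% and 3.19%) had the smaller share in replicate 2.

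**Figure D3:**
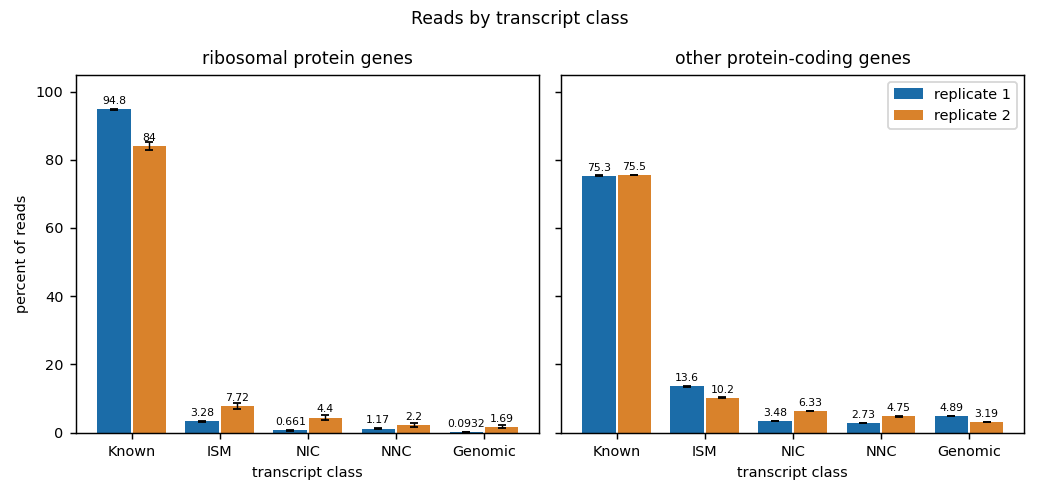
Percent of reads in each transcript class in replicate 1 (left bar of each pair) and replicate 2 (right bar), for the ribosomal protein genes (left) and for all other protein-coding genes (right), with exact 95% binomial intervals. The Known bar of the ribosomal protein genes stands at 94.8% in replicate 1 and 84.0% in replicate 2.

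The unannotated models of members were longer in replicate 2. Per read, the median model length of NIC reads was 623 bases in replicate 1 and 2382 bases in replicate 2. For ISM reads the medians were 701 bases (replicate 1) and 1479 bases (replicate 2). NNC reads had 647 bases in replicate 1 and 896 in replicate 2, and Genomic reads 1586 bases in replicate 1 and 2900.0 bases in replicate 2. Incomplete reads mostly kept the 3′ part, at 69.1% of ISM reads in replicate 1 and 77.5% in replicate 2, while 27.7% in replicate 1 and 13.4% in replicate 2 kept the 5′ part. Rpl14, named after its values were seen, had many reads that kept the 5′ part in replicate 1. Of its 709 reads in replicate 1, 128 were on 1 such model of 449 bases.

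Reads that kept a whole intron between exons of the gene were examined in 79 members. They were 178 of 47381 reads in replicate 1, or 0.376% (exact interval 0.323 to 0.435%), and 133 of 3346 reads in replicate 2, or 3.97% (3.34 to 4.69%). Expressed over all reads of the library this is 209.7 CPM in replicate 1 and 244 CPM in replicate 2, while the member reads without a kept intron were 55613 CPM in replicate 1 and 5893 CPM in replicate 2. For all other protein-coding genes the share was 0.732% in replicate 1 and 3.0% in replicate 2. Of the 52 members with any such read, 34 had the larger share in replicate 2.

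Rpl10a and Rpl3 had more of these reads than any other member. Rpl10a, a protein of the large subunit, had 61 of 923 reads with a kept intron in replicate 1 (6.61%, exact interval 5.09 to 8.41%) and 26 of 61 in replicate 2 (42.6%, 30.0 to 55.9%). Rpl3 had 21 of 1196 such reads in replicate 1 (1.76%, 1.09 to 2.67%) and 41 of 214 in replicate 2 (19.2%, 14.1 to 25.1%). For both genes the intervals lay apart. They also lay apart for Rpl4, Rpl13, Rps7, Rpl5 and Rps19, each with the larger share in replicate 2, and overlapped in the remaining members with such a read. The share over all other protein-coding genes was also larger in replicate 2, as given above, so this direction was not particular to Rpl10a and Rpl3. Without Rpl10a and Rpl3, chosen after their values were seen, the share over the members was 0.212% in replicate 1 and 2.15% in replicate 2.

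**Figure D4:**
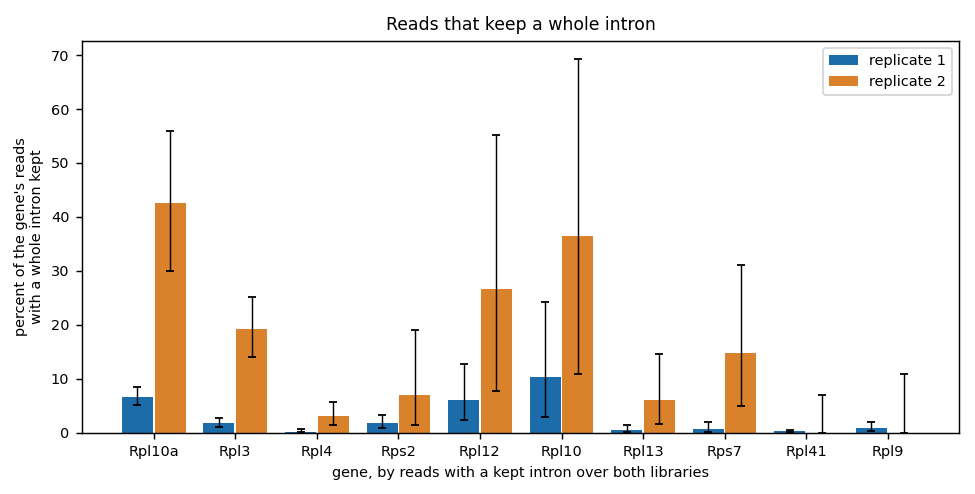
Percent of the reads of a gene that keep a whole intron, in replicate 1 (left bar of each pair) and replicate 2 (right bar), for the 10 members with the most such reads over both libraries; error bars are exact 95% binomial intervals. Rpl10a stands at 6.61% in replicate 1 and 42.6% in replicate 2, and Rpl3 at 1.76% in replicate 1 and 19.2% in replicate 2.

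The kept intron of Rpl10a was mostly intron 3 (chr17:28329048-28329373, 326 bases), in 61 reads of replicate 1 and 25 of replicate 2, and its intron 4 (chr17:28329523-28330524) was kept in 1 read of replicate 1 and 21 of replicate 2. That of Rpl3 was intron 3 (chr15:80081032-80081614, 583 bases), in 21 reads of replicate 1 and 40 of replicate 2. No small nucleolar RNA gene lies in these introns, although 30 of 85 members (35.3%) hold one in an intron of the main transcript, against 1.18% of other protein-coding genes. The splice sites of both introns 3, where the libraries differed, are given in mm10 with 10 bases of exon and 20 of intron, read from annotated transcripts that contain the introns, with the first or last 2 bases of the intron in capitals.
Rpl10a donor: gcaccgtcagGTtggcaccgctctaacccc
Rpl10a acceptor: ttctcccctcccaaacgcAGgctcaagtcc
Rpl3 donor: ataagaactgGTaagaggctcttgggttcc
Rpl3 acceptor: actgtgctctgctcctgaAGgcacaagtct
The windows lie at chr17:28329038-28329067 and chr17:28329354-28329383 on the plus strand for Rpl10a, and at chr15:80081595-80081624 and chr15:80081022-80081051 on the minus strand for Rpl3. Both introns begin with GT and end with AG.

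Isoform use differed between the libraries in few members. For each gene with 20 or more Known, NIC or NNC reads per library, its leading model was set against the rest (Fisher's exact test, two-sided). Of 59 members tested, 6 passed (10.2%), against 9.84% of 2186 genes. Among them were Rps24, Rpl10a, Rpl3, Rpl13 and Rpl35. The leading model of Rpl10a, a Known one, made up 89.4% of 875 reads in replicate 1 and 41.1% of 56 in replicate 2 (adjusted p = 1.19e-14, Fisher's exact test). That of Rpl3 made up 97.0% in replicate 1 and 80.6% in replicate 2 (adjusted p = 2.27e-13, Fisher's exact test). For Rpl13 it was 97.4% in replicate 1 and 84.5% in replicate 2, and for Rpl35 98.9% in replicate 1 and 87.0% in replicate 2, so the leading model had the smaller share in replicate 2 in each of these 5. For Rpl10a and Rpl3 these are in part the reads with a kept intron described above.

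Rps24 had the smallest p of the members. Its mRNA is known for tissue-dependent use of short exons near the 3′ end that change the last codons. In the annotation, the coding sequence ends in an exon of 18 bases, in an exon of 20 bases or in the last exon, depending on the transcript. These annotated ends, which flank the stretch where the reads were joined differently, are printed in mm10 on the plus strand with the annotated stop codon in capitals. The first run is extended to 30 bases, into the longer exon of the reads.
Rps24 short exon: aaaTGAaatacctagcaggtactgccattg
Rps24 20-base exon: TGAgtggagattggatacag
Rps24 last exon: ccaaaggagTAG
These runs lie at chr14:24494052-24494081, chr14:24495430-24495449 and chr14:24495775-24495786.

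Reads of Rps24 were joined differently in the libraries. A 36-base exon between the fourth and the last exon, which begins at the start of the annotated 18-base exon, was present in 127 of 233 reads in replicate 1 (54.5%, exact interval 47.9 to 61.0%) and in 3 of 126 in replicate 2 (2.38%, 0.494 to 6.80%). A long exon joined to the last exon was present in 3 reads in replicate 1 (1.29%) and 74 in replicate 2 (58.7%, 49.6 to 67.4%). The count of reads with a kept intron given above held 0 Rps24 reads in replicate 1 and 1 in replicate 2. It therefore leaves out nearly all reads with this long exon, and how much intron sequence they hold was not tested. The fourth exon was joined directly to the last in 28 reads in replicate 1 (12%) and 4 in replicate 2 (3.17%). Reads on models unspliced through this stretch were 60 (25.8%) in replicate 1 and 26 (20.6%) in replicate 2. Of these, 48 in replicate 1 and 18 in replicate 2 were on the Known model Rps24-204, whose annotated last exon covers the stretch. Lengths of Known models are not those of the reads, so whether these reads run through the stretch was not tested. Another 15 reads in replicate 1 and 19 in replicate 2 had another structure or none that could be assigned. The exact intervals lay apart for the 36-base and for the long exon.

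**Figure D5:**
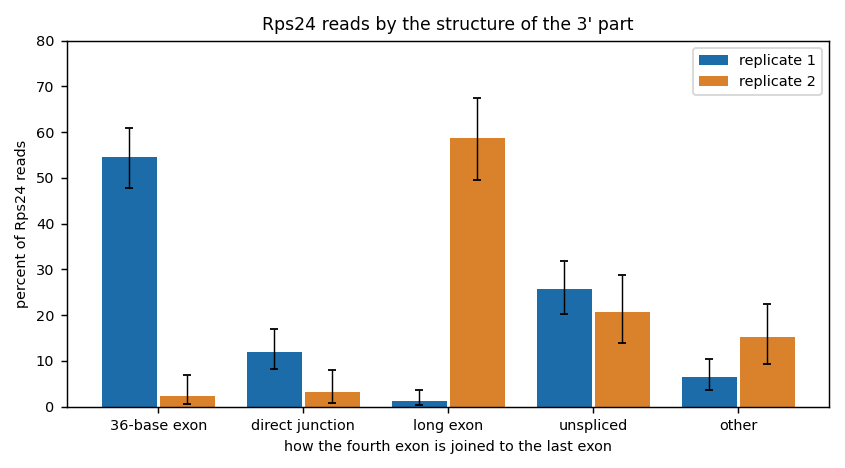
Percent of Rps24 reads by how the fourth exon is joined to the last, in replicate 1 (left bar of each pair, 233 reads) and replicate 2 (right bar, 126 reads), with exact 95% binomial intervals. The 36-base exon stands at 54.5% in replicate 1 and 2.38% in replicate 2, and the long exon at 1.29% in replicate 1 and 58.7% in replicate 2. The unspliced bars follow the exons of the models, and reads on Known models may end earlier.

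In reads scaled to CPM the forms of Rps24 moved apart while the gene as a whole did not pass at total-read scaling. The gene passed as higher in replicate 1 under TMM, DESeq2 size factors and Known models only. It also did with the length trend removed, but at an annotated length of 2769 bases. The 36-base exon had 149.6 CPM in replicate 1 and 5.50 CPM in replicate 2. The long exon had 3.53 CPM in replicate 1 and 136 CPM in replicate 2. The most-read model was 548 bases long in replicate 1 (95 reads) and 2505 bases long in replicate 2 (33 reads). Model length and structure thus moved together in this gene, and which of them set the difference cannot be told apart.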

How the data were processed

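The authors deposited whole read counts per transcript model for 2 libraries, made on mm10 with GENCODE M21, per the file headers and the text deposited with them; models are credited to TALON in the deposited annotation. The deposited counts carry no normalization, and neither aligner nor platform is named in the sources used. Reads were summed per gene and scaled to CPM (total 1000000). Genes with at least 10 reads over both libraries were compared with Fisher's exact test (scipy 1.17.1), Benjamini-Hochberg adjusted over all 9879 of them; log2 ratios use a pseudocount of 1 CPM. With 1 group, a count model with dispersion had no contrast to test. Alternatives were TMM (edgeR 4.0.16), DESeq2 1.42.0 size factors, removal of the length trend, Known models only, other filters and pseudocounts. Kept introns were internal exons covering a whole intron of the most-read protein-coding Known transcript; terminal exons, whose ends are shared between reads, were left out after a first count had included them. The scripts were tested on simulated data, where changes of genes with few reads were not all recovered; the pass criterion was then set on genes of at least 50 reads, after this was seen. Members named in the text followed a rule: the highest means, the extreme ratios with and without the length trend, members under 10 reads, stalk genes, paralogs with their partners, and isoform calls. The members, lists and tests were chosen with earlier results of these data known. Results of some genes are not reported here.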

Additional observations from a re-analysis of the deposited data

How the results depend on the processing

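No paired analysis was possible because the series has 1 group, so no numbers are shared between groups. With the length trend removed, 52 members passed instead of 83, against 41.5% of all genes instead of 64.4%. The median log2 ratio of the tested members was 0.29 instead of 3.07. Of the named members, 11 changed sign. Those that then passed as lower were Rpl10 (−2.09), Rpl3 (−0.30), Rpl4 (−0.25), Rpl7a (−2.13), Rplp1 (−0.68), Rps12 (−1.99) and Rps12-ps3 (−2.48). Rpl10a (−0.01), Rpl13 (−0.26), Rpl7 (−0.19) and Rplp2 (−0.52) did not pass in either direction. Annotated length itself is doubtful for several members, so these values carry that doubt. The calls of Rpl22l1, Rpl36a, Rps27 and Rps27l also ended there, without a change of sign. Under TMM, DESeq2 size factors, Known models only and the other filters the number of members that passed stayed between 81 and 85. The share of all genes that passed was 61.4% under TMM, 61.3% under DESeq2 size factors and 75.6% with Known models only. It was 37.5% with no filter on low counts and 83.4% with at least 50 reads. Leaving out each library in turn gave a share of reads from 0.675 to 5.81% and a ratio of large to small subunit reads from 1.55 to 1.86. Without Rpl3 and Rpl10a, an alternative added after seeing the data, the share of reads with a kept intron was 0.212% in replicate 1 and 2.15% in replicate 2. With at least 50 isoform reads 5 of 20 members passed the isoform test, against 13.1% of all genes, and with Known models only 5 of 48, against 11.9%. Replicate 2 limits the members of low count: a single read there is 1.83 CPM.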
